A study of Mus musculus with 17 samples.

Results

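The genes followed here were the FoxO transcription factors and the insulin and IGF signalling genes that act above them, 10 of the 55453 gene symbols in a table of cortex expression. They were taken by symbol and were Foxo1, Foxo3, Foxo4 and Foxo6, the ligand Igf1, the binding protein Igfbp2, the receptors Igf1r and Insr, and the receptor substrates Irs1 and Irs2. The set was selected on a measured value, the P209L difference of Foxo4, which was already known to be called. Every value and every count of called genes in that comparison is therefore a description and no result of a test. Whether values of other comparisons also entered the choice is not known. All 10 genes passed the filter on low values (a mean of at least 1 TPM over all mice).

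RNA was sequenced from bulk cortex of 17 male C57BL/6J mice. In the KO line, 3 mice hemizygous for a frameshift knockout of Hnrnph2 were set against 3 wild-type littermates (KO control) at 8 weeks. In the R206W line, 3 mice hemizygous for the R206W substitution in hnRNPH2 were set against 3 wild-type littermates (R206W control) at 8 weeks. In the P209L line, 3 mice hemizygous for the P209L substitution were set against 2 wild-type littermates (P209L control) at 3 weeks, so that line and age are the same split of the wild-type mice. Each allele is carried in the germline, and hnRNPH2 is an X-linked RNA-binding protein. Values are TPM, a share of all transcripts after division by transcript length that sums to 1000000 in each mouse, and the depth behind them is unknown.

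Insulin and the IGFs bind related receptor tyrosine kinases, Insr and Igf1r, which phosphorylate the scaffold proteins Irs1 and Irs2. These recruit PI3K, which activates AKT, and AKT phosphorylates FoxO factors so that they are bound by 14-3-3 proteins and held in the cytoplasm. When the signal is low, FoxO factors enter the nucleus and bind a core DNA motif with a shared forkhead domain. In the brain, Igf1 promotes growth and myelination, and Igfbp2, a secreted protein that binds IGFs, is made in glia, leptomeninges and choroid plexus.

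The 4 FoxO genes are paralogs, and their most alike coding sequence is where reads could be assigned to the wrong gene. The stretch around the longest run of bases that Foxo3 and Foxo4 share, within the part that encodes the forkhead domain, is printed for that reason from the GENCODE coding sequences (GRCm38), with capitals for bases that all 4 genes have in common.
Foxo1: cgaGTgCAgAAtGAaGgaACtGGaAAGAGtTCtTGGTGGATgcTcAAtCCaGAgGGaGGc
Foxo3: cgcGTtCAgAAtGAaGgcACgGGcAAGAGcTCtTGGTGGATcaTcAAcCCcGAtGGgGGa
Foxo4: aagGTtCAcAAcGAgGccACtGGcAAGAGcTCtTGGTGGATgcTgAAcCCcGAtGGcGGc
Foxo6: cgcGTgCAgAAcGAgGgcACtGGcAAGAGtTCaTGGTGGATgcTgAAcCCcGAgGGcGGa
Of these 60 bases, 39 were the same in all 4 genes. Foxo6 shared 50 bases of the stretch with Foxo4, Foxo3 shared 47 and Foxo1 shared 44. The longest run common to the coding sequences of Foxo4 and another FoxO gene was 20 bases, with Foxo3 and with Foxo6. The longest run of any FoxO pair was 38 bases, shared by Foxo1 and Foxo3, and lies outside the stretch printed. No pair of FoxO genes shared a run of 50 bases in any annotated transcript, and neither did Igf1r with Insr or Irs1 with Irs2. On GRCm38, Foxo4 (ENSMUSG00000042903.8) lies on chromosome X at 101254528 to 101260873, the same chromosome as Hnrnph2, and the other members are autosomal. Irs2 is overlapped on the opposite strand by 9530052E02Rik, with a mean of 0.95 TPM, and the library kit was a stranded one.

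The labels were checked first with Hnrnph2, which was at 23.1 ± 1.59 TPM in KO (SD, n = 3) and 122 ± 35.7 TPM in KO control. It was at 146 ± 12.9 TPM in R206W against 145 ± 4.57 TPM in its controls, and at 92.5 ± 9.3 TPM in P209L against 86.5 ± 6.96 TPM. Markers of cortical excitatory neurons summed to between 1982 and 4473 TPM in every mouse, and no marker gene of the 11 cell types checked was at 0 throughout a group. A pair of wild-type mice stood apart. KO control 1 had 20.1% of its TPM in mitochondrially encoded genes against 10.7% to 15.4% in the other mice. P209L control 2 had 1777 TPM in 7 choroid plexus markers against 2.9 to 26.9 TPM elsewhere, and its oligodendrocyte markers summed to 6121 TPM against 4105 TPM in P209L control 1 and 2486 to 3560 TPM in P209L. The member differences that depended most on either mouse are given with and without it. In bulk tissue, fewer cells of a type and less RNA per cell cannot be told apart.

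In 8-week wild-type cortex (6 mice), Igfbp2 was the most abundant member with a mean of 37.8 TPM, followed by Foxo3 with 34.8 TPM and Irs2 with 30.4 TPM. Igf1r followed at 18.7 TPM, Insr at 14.4 TPM and Foxo4 at 11.6 TPM. The remaining genes were lower, with Foxo6 at 5.82 TPM, Irs1 at 4.92 TPM, Igf1 at 4.23 TPM and Foxo1 at 3.98 TPM. The ranges of neighbours in this order overlapped over the mice except between Foxo4 and Foxo6. Within each mouse, however, Igf1r was above Insr in 6 of 6 controls and Insr was above Foxo4 in 5 of 6. In the 3-week controls the order differed, with Igfbp2 at 38.5 TPM, Foxo3 at 19.6 TPM, Insr at 11.7 TPM, Foxo4 at 10.5 TPM, Igf1r at 9.91 TPM and Irs2 at 7.67 TPM. Irs1 at 3.25 TPM, Igf1 at 3.1 TPM, Foxo1 at 2.54 TPM and Foxo6 at 2.38 TPM came last, and here Insr was above Igf1r in both mice.

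**Figure D1:**
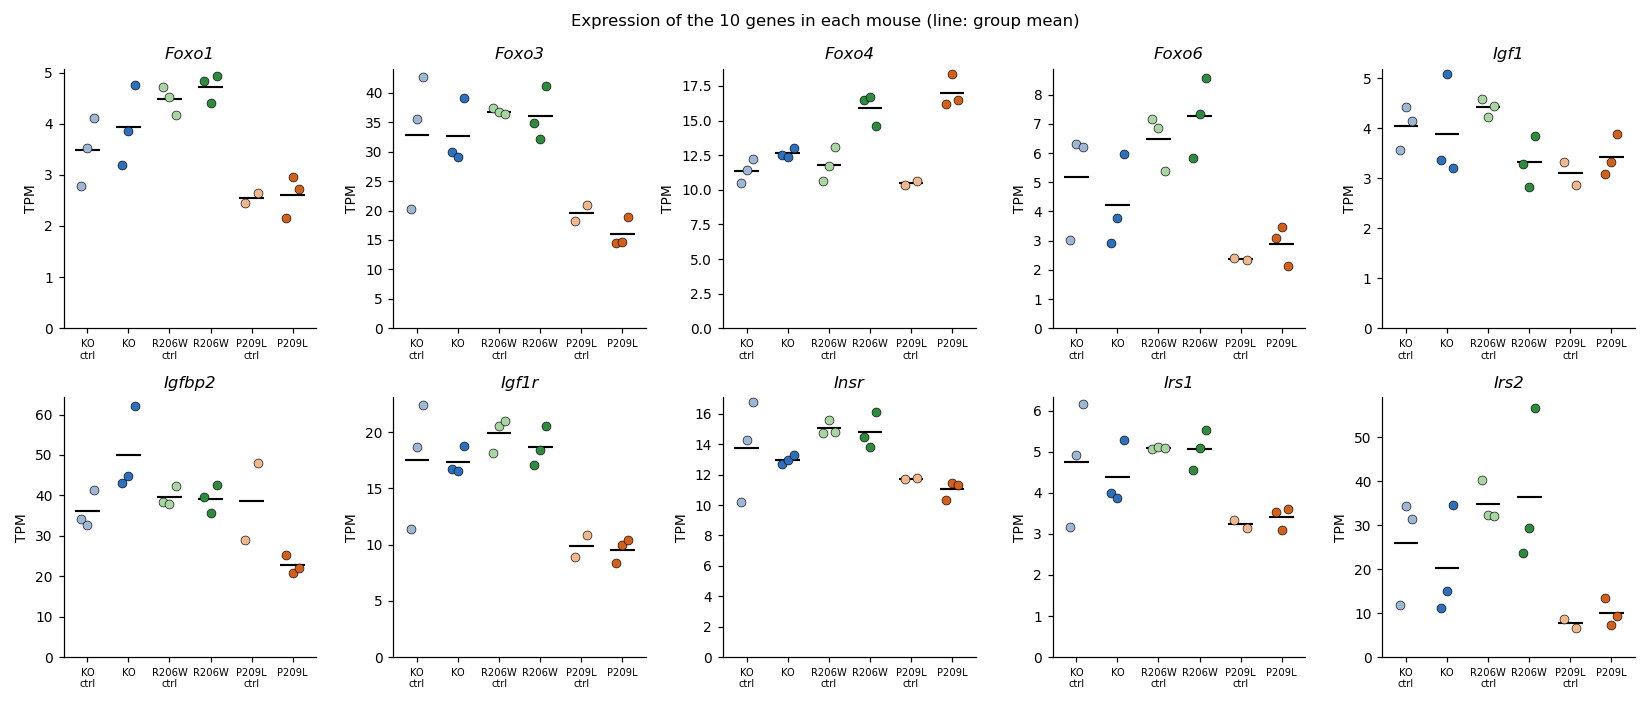
TPM (linear axis from 0) of the 10 genes in each of the 17 mice, by group, with a line at each group mean. Foxo4 is at 14.58 TPM or more in every R206W and P209L mouse and at 13.11 TPM or less in every other mouse. The P209L difference of Foxo4 selected the set. Foxo1, Foxo3, Foxo6, Igf1r, Insr, Irs1 and Irs2 have lower group means in both 3-week groups than in any 8-week group.

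Foxo4 was the gene whose P209L difference selected the set, so its rank among the members in P209L is no result. Whether its R206W values also entered the choice is not known, so its p in R206W may not be an independent test. In R206W, Foxo4 was at 16.47, 16.67 and 14.58 TPM, and in R206W control at 10.62, 11.69 and 13.11 TPM. All 3 R206W mice were above all 3 controls, at 135% of the control mean. The difference in log2(TPM + 1) was 0.40 (SE 0.101), with an unadjusted p = 0.00108 and an adjusted p = 0.956 in limma, which did not pass the threshold of 0.05. Over the alternative settings the log2 difference stayed between 0.34 and 0.48 and the adjusted p ran from 0.00304 to 1, passing in 1 of 17. Of all genes tested, 8.09% were higher in every R206W mouse than in every control and 8.11% were lower.

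In P209L, Foxo4 was at 16.18, 18.36 and 16.46 TPM against 10.38 and 10.67 TPM in P209L control, or 162% of the control mean, with a log2 difference of 0.64 (SE 0.113). This is the value the set was selected on, so its call is no result; 1 member was called there, with 0.0984% of all genes called, 0.0799% as higher and 0.0184% as lower. The mean of 17 TPM placed Foxo4 second among the members, above Foxo3 in 2 of 3 P209L mice. Leaving out each mouse in turn gave log2 differences between 0.59 and 0.67, and in each of these 5 fits, with robust estimation, on the line alone and with a replicate block 0 members were called. In KO, Foxo4 was at 12.53, 12.36 and 13.01 TPM against 10.52, 11.4 and 12.21 TPM in KO control. The groups again did not overlap, but the log2 difference was only 0.14 (SE 0.101, unadjusted p = 0.18, adjusted p = 0.999 in limma). For Foxo4 the KO effect minus the R206W effect was -0.26 (SE 0.142, unadjusted p = 0.0855, adjusted p = 1 in limma) and did not pass the threshold.

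The other FoxO genes did not separate in the same way. Foxo3, the most abundant FoxO gene in 8-week cortex, was at 34.84, 32.19 and 41.17 TPM in R206W against 37.45, 36.67 and 36.35 TPM in its controls, with a log2 difference of -0.04 (SE 0.205). In KO it was at 30.03, 29.11 and 39.06 TPM against 20.34, 35.6 and 42.71 TPM, a difference of 0.04 (SE 0.205) that became -0.26 without KO control 1. In P209L it was at 14.44, 14.6 and 18.94 TPM against 18.27 and 20.98 TPM, a difference of -0.29 (SE 0.23). In each line the Foxo3 ranges overlapped.

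Foxo1, which is best known for its control of hepatic glucose production, was at 3.19, 3.85 and 4.76 TPM in KO against 2.79, 3.53 and 4.12 TPM. It was at 4.83, 4.41 and 4.94 TPM in R206W against 4.72, 4.53 and 4.18 TPM, and at 2.15, 2.96 and 2.72 TPM in P209L against 2.44 and 2.65 TPM. The mutant and control ranges overlapped in each line. Foxo6, a FoxO gene expressed mainly in the nervous system, was at 2.92, 3.76 and 5.97 TPM in KO against 3.03, 6.3 and 6.21 TPM. It was at 5.84, 7.35 and 8.57 TPM in R206W against 7.15, 6.87 and 5.39 TPM, and at 3.08, 3.47 and 2.13 TPM in P209L against 2.42 and 2.34 TPM. None of these Foxo6 or Foxo1 differences passed in KO or R206W, with log2 values for Foxo6 of -0.24 (SE 0.24) and 0.14 (SE 0.24). With sample weights, which gave KO control 1 a weight of 0.0819, Foxo6 was called in KO at -0.77 (adjusted p = 0.0106 in limma).

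Because TPM is divided by length, the FoxO genes can be added within a mouse. Their sum was 53.5 TPM in KO against 52.9 TPM in its controls, a difference of 0.597 TPM that turned to -7.52 TPM without KO control 1 and to -1.17 TPM with median-of-ratios scaling. It was 64 TPM in R206W against 59.6 TPM, and 38.5 TPM in P209L against 35.1 TPM. Without Foxo4 the R206W sums overlapped those of the controls, at 43.95 to 54.68 TPM against 45.92 to 49.32 TPM. Foxo4 made up 40.9% to 46.6% of the sum in P209L and 29.1% and 31% in P209L control. In R206W its share was 21.1% to 27.5% and overlapped the 17.7% to 22.2% of the controls, and in KO 20.7% to 25.7% lay within the 18.7% to 28.7% of the controls, where KO control 1 held the highest share. The Foxo3 share in P209L was 37.1% to 47.1% against 54.5% and 57.3% in P209L control. The sum and the shares in P209L contain the Foxo4 values that selected the set, so they are no separate result.

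**Figure D2:**
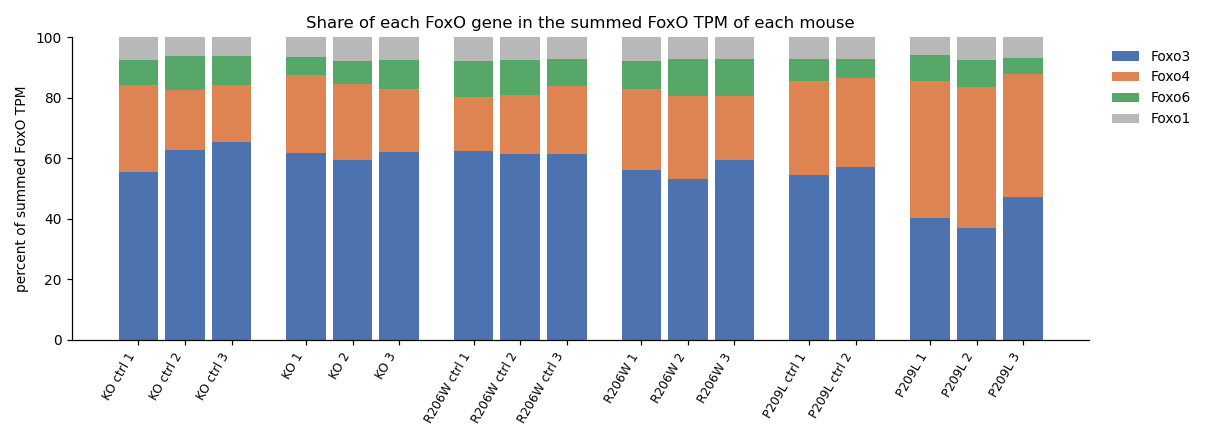
Share of Foxo3, Foxo4, Foxo6 and Foxo1 (percent of their summed TPM, stacked to 100) in each of the 17 mice. The Foxo4 share is 40.9% to 46.6% in the P209L mice and 31% or less in every other mouse. The P209L shares contain the Foxo4 values that selected the set.

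Igfbp2 was the only other member whose groups separated in more than 1 line. In KO it was at 43, 44.74 and 62.16 TPM against 34.26, 32.61 and 41.32 TPM in KO control. All 3 KO mice were above all 3 controls, at 139% of the control mean, with a log2 difference of 0.45 (SE 0.172). The unadjusted p was 0.0196 and the adjusted p = 0.999 in limma. Without KO 3, the highest mouse, the difference was 0.28. In KO, 5.43% of all genes were higher without overlap and 0.824% were lower.

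Markers of several other cell types lay higher in KO as well, though 0 of them passed the threshold. Astrocyte markers had positive differences for 7 of 7 genes (median log2 difference 0.26, 2 with an unadjusted p under 0.05 in limma) and summed to 1324 to 1511 TPM in KO against 1022 to 1400 TPM. Endothelial markers were positive for 7 of 7 (median 0.32), with sums of 144.1 to 186.9 TPM against 108.3 to 157.6 TPM, and leptomeningeal fibroblast markers for 7 of 8 (median 0.22), with 38.9 to 63.8 TPM against 38.4 to 52.2 TPM. The median over all genes in KO was 0.06, and 10942 of the 16265 genes tested had a positive difference. Positive counts were 8 of 8 for oligodendrocyte, 5 of 5 for blood, 6 of 7 for microglia and 2 of 2 for muscle markers. They were 3 of 5 for striatal, 3 of 6 for interneuron, 3 of 7 for excitatory neuron and 1 of 2 for choroid plexus markers. KO control 1 had the lowest astrocyte and endothelial sums and the highest leptomeningeal sum of the KO controls. The other KO controls had 1258 and 1400 TPM of astrocyte and 132.5 and 157.6 TPM of endothelial markers. KO 3 had the highest leptomeningeal sum as well as the highest Igfbp2 value of all mice. The part of these cells in the Igfbp2 difference was not tested.

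In P209L, Igfbp2 was at 25.21, 20.84 and 22.16 TPM against 29.02 and 48.03 TPM in P209L control, lower in all 3 mice and at 59% of the control mean. The log2 difference of -0.70 (SE 0.192) depended on P209L control 2, and without that mouse it was -0.34. The same mouse carried the choroid plexus markers, among them Ttr at 1740 TPM against 8.31 TPM in P209L control 1, and Kl, which encodes Klotho, at 4.41 TPM against 0.4 TPM. The part of choroid plexus or oligodendrocyte RNA in the Igfbp2 value of that mouse was not tested. In R206W, Igfbp2 was at 39.56, 35.57 and 42.53 TPM against 38.3, 37.98 and 42.41 TPM, and the groups overlapped. The KO effect minus the R206W effect was 0.46 (SE 0.243, unadjusted p = 0.0765, adjusted p = 1 in limma).

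**Figure D3:**
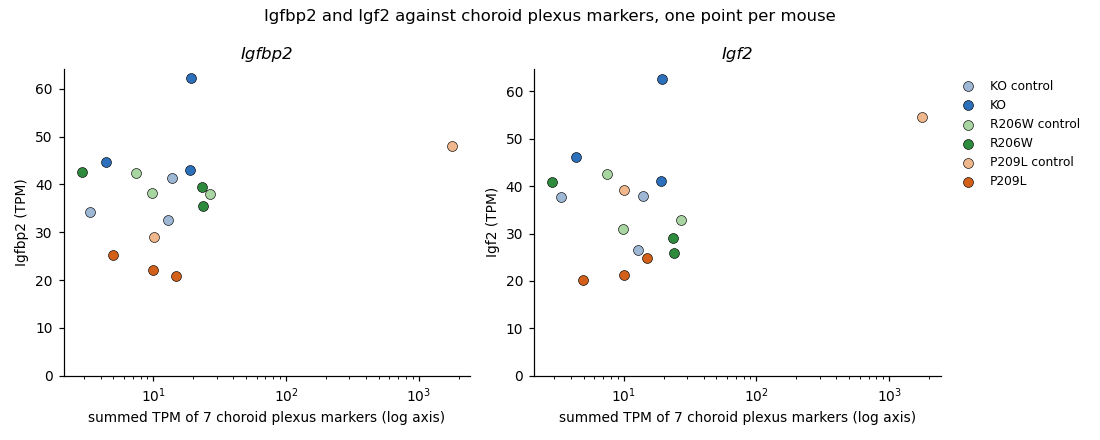
TPM of Igfbp2 (left) and of the ligand gene Igf2 (right) on linear axes against the summed TPM of 7 choroid plexus markers on a log axis, with a point for each mouse. P209L control 2 lies alone at 1777 TPM of markers, and the 3 P209L mice are the lowest of all 17 mice for both genes, at 25.21 TPM or less for Igfbp2 and 24.89 TPM or less for Igf2.

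Igf1 showed a separation only in R206W, at 3.28, 2.83 and 3.84 TPM against 4.59, 4.22 and 4.45 TPM in R206W control. All 3 R206W mice were below all 3 controls, at 75% of the control mean. The log2 difference of -0.33 (SE 0.145) had an unadjusted p = 0.0354 and an adjusted p = 1 in limma, and stayed between -0.42 and -0.25 over the alternative settings. In KO, Igf1 was at 3.37, 5.08 and 3.21 TPM against 3.56, 4.43 and 4.14 TPM, with KO 2 above every control and the others below. In P209L it was at 3.09, 3.32 and 3.88 TPM against 3.33 and 2.86 TPM, which overlapped. For Igf1 the KO effect minus the R206W effect was 0.27 (SE 0.205, unadjusted p = 0.204, adjusted p = 1 in limma).

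For the receptors, which bind IGFs and insulin, the ranges of mutant mice and littermates overlapped except for Insr in P209L. Igf1r was at 16.7, 16.56 and 18.73 TPM in KO against 11.37, 18.69 and 22.38 TPM, and at 17.1, 18.41 and 20.52 TPM in R206W against 18.14, 20.56 and 21.01 TPM. In P209L it was at 8.34, 9.93 and 10.39 TPM against 8.94 and 10.88 TPM. The log2 differences were 0.04 (SE 0.178), -0.09 (SE 0.178) and -0.05 (SE 0.199), each smaller than its error, but the KO difference was -0.23 without KO control 1. Insr was at 12.72, 12.97 and 13.29 TPM in KO against 10.2, 14.29 and 16.75 TPM, and at 14.48, 13.83 and 16.15 TPM in R206W against 14.76, 15.59 and 14.79 TPM. In P209L it was at 10.33, 11.48 and 11.33 TPM, below 11.7 and 11.79 TPM in both P209L controls, at 94.1% of their mean. Its log2 differences of -0.05 (SE 0.132), -0.02 (SE 0.132) and -0.08 (SE 0.148) were likewise within 1 SE, and the KO difference was -0.24 without KO control 1. KO control 1 had the lowest value of the 8-week mice for both receptors.

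The substrates were of unequal spread. Irs1, the less abundant of the pair, was at 4, 3.88 and 5.28 TPM in KO against 3.18, 4.92 and 6.17 TPM, and at 4.56, 5.1 and 5.54 TPM in R206W against 5.07, 5.11 and 5.1 TPM. In P209L it was at 3.54, 3.1 and 3.61 TPM against 3.35 and 3.15 TPM. All of these ranges overlapped. Irs2 had the largest SE of the members. It was at 11.24, 14.92 and 34.65 TPM in KO against 11.95, 34.32 and 31.51 TPM, and at 23.65, 29.33 and 56.53 TPM in R206W against 40.15, 32.2 and 32 TPM. In P209L it was at 13.54, 7.34 and 9.38 TPM against 8.69 and 6.65 TPM. With an SE of 0.413, the log2 differences of -0.37 in KO and -0.02 in R206W did not pass the threshold. Without KO control 1 the KO difference was -0.83 (adjusted p = 0.483 in limma), and with the sample weights it was -1.31 (adjusted p = 0.0095).

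Counted over the 10 members, 0 passed the threshold in KO, where 0.00615% of all genes were called in limma, and 1 had an unadjusted p under 0.05, against 4.08% of all genes. In R206W 0 passed, where 0.0369% of all genes were called, and 2 had an unadjusted p under 0.05, against 2.19%. The KO and R206W effects differed for 0 members, where 0.0307% of all genes were called, and 0 had an unadjusted p under 0.05, against 2.29% of all genes. The groups did not overlap for Foxo4 and Igfbp2 in KO, for Foxo4 and Igf1 in R206W, and for Foxo4, Igfbp2 and Insr in P209L. In P209L, 14.2% of all genes were higher without overlap and 10.7% were lower.

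**Figure D4:**
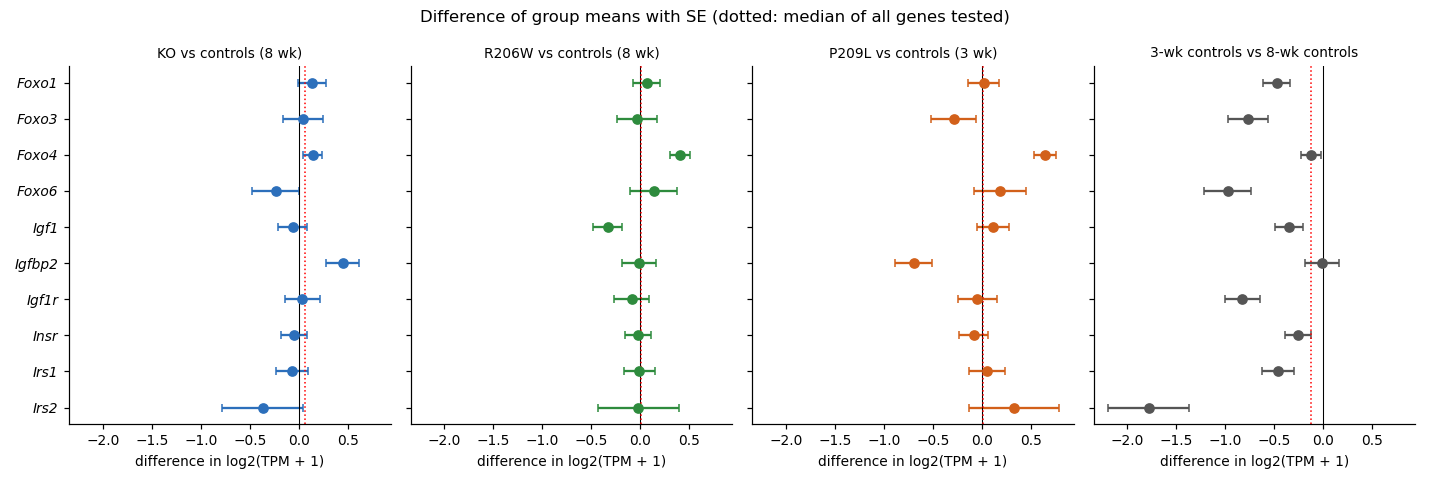
Difference of group means in log2(TPM + 1) with its SE for the 10 genes in KO, R206W and P209L against their own controls and in 3-week against 8-week controls, with a dotted line at the median of all genes tested. Foxo4 lies at 0.40 in R206W and 0.64 in P209L, and the member lowest in the age panel is Irs2 at -1.78.

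The comparison of wild-type mice asked how the same genes differed between 3-week and 8-week cortex. Irs2 had the largest difference of the members, at 8.69 and 6.65 TPM in P209L control against 11.95 to 40.15 TPM in the 8-week controls (median 32.1 TPM). It was at 25.3% of the 8-week mean, with a log2 difference of -1.78 (SE 0.413, adjusted p = 0.0041 in limma). Foxo6 was at 40.9% of the 8-week mean, with a difference of -0.98 (SE 0.24, adjusted p = 0.00568), and Igf1r was at 53%, with -0.83 (SE 0.178, adjusted p = 0.00252), both in limma. These 3 genes and Foxo1 and Igf1 were lower in both 3-week controls than in all 6 controls at 8 weeks, as were 21.5% of all genes, while 16.7% were higher.

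Foxo3 was at 56.3% of the 8-week mean, with a log2 difference of -0.77 (SE 0.205, adjusted p = 0.00949 in limma), although KO control 1 at 20.34 TPM lay within the range of the 3-week controls. Foxo1 was at 64%, with -0.48 (SE 0.141, adjusted p = 0.016 in limma), and Irs1 at 66%, with -0.46 (SE 0.162, adjusted p = 0.036 in limma). Against KO control alone neither passed, with adjusted p = 0.14 for Foxo1 and 0.115 for Irs1 in limma. Irs1 passed in 9 of 19 alternative settings, and also did not pass with no filter (adjusted p = 0.0777) or in the fit on these groups alone (adjusted p = 0.0987). Igf1 at 73.1% (log2 difference -0.35, adjusted p = 0.0689 in limma) and Insr at 81.6% (-0.26, adjusted p = 0.138 in limma) did not pass. Foxo4 had a difference of -0.12 (SE 0.101) and Igfbp2 of -0.01 (SE 0.172, adjusted p = 0.971 in limma). The Foxo4 value is a description, since its P209L control values are part of the difference that selected the set. The Foxo4 and Igfbp2 differences turned to 0.01 and 0.13 with median-of-ratios scaling. The Igfbp2 difference was 0.34 without P209L control 1 and -0.36 without P209L control 2.

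Between the ages 6 of 10 members were called lower and 0 higher, where 36.1% of all genes tested were called, 24.8% as lower and 11.3% as higher. At an unadjusted p under 0.05 the members were 7 of 10, against 46% of all genes. The median difference over all genes was -0.12, and -0.47 over the members. With median-of-ratios scaling the median over all genes was 2.05e-05 and the member median -0.36, with 6 members again called lower, while 22.6% of all genes were called lower and 21.5% higher. Leaving out either P209L control left 2 members called, Foxo6 and Irs2 without P209L control 1, and Foxo3 and Igf1r without P209L control 2. Leaving out KO control 1 gave 8 called, Igf1 and Insr in addition. Irs1 was the member closest to the threshold, and leaving out any other control mouse of the 8-week groups raised its adjusted p to between 0.0542 and 0.0625 in limma.

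Blood markers summed to 2572 and 4884 TPM in the 3-week controls against 695.5 to 1252 TPM in the 8-week controls. Oligodendrocyte markers were also higher in the 3-week controls, with 4105 and 6121 TPM against 2632 to 3613 TPM. The higher value was that of P209L control 2, and the P209L mice, of the same age, had 2486 to 3560 TPM. Excitatory neuron markers were at 2617 and 2875 TPM in the 3-week controls against 2432 to 4235 TPM in the 8-week controls. The lowest 8-week value was that of KO control 1, and the other 8-week controls had 3728 TPM or more. Of the 7 excitatory neuron markers, 4 were called lower and 0 higher, with a median log2 difference of -0.67. Astrocyte markers were at 767.1 and 964.2 TPM against 1022 to 1400 TPM, with 3 of 7 called lower and 0 higher. The part of these cells in the member differences was not tested.

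The balance of the receptors also differed with age. The ratio of Igf1r to Insr TPM was 0.764 and 0.923 in the 3-week controls and 1.11 to 1.42 in the 8-week controls, with means of 0.844 and 1.29. The exact permutation test gave p = 0.0357 (two-sided, n = 2 and 6), the smallest it can give in this design. The P209L mice, at 0.807, 0.865 and 0.917, lay in the range of their controls, and the KO and R206W mice, at 1.18 to 1.41, in that of the 8-week controls. The mean ratio was 1.33 in KO against 1.25 in its controls and 1.26 in R206W against 1.32, a design of 3 mice against 3 in which the exact permutation test cannot go below 0.1. The sum of the FoxO genes was 33.5 and 36.6 TPM in the 3-week controls against 36.7 to 65.3 TPM in the 8-week controls, where KO control 1 was the lowest.

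Upstream sequences were searched for an insulin response motif and a FoxO core motif. Those of Irs1 and Irs2 are shown since they alone held a match. Of the 10 genes, 7 matched a RefSeq promoter window (GRCm38.p6, 250 bases before to 50 after a start), with 8 windows in all. The insulin response motif TGTTTTG, or its reverse complement CAAAACA, was in 2 of the 8 windows, those of Irs1 and Irs2, and in 6.28% of 32841 promoter windows. The FoxO core motif TGTTTAC, or GTAAACA, was in 0 of the 8 windows and in 3.65% of all. Foxo1, Foxo3 and Igf1r, called lower at 3 weeks like Irs1 and Irs2, had windows without a match of either motif. The 130 bases printed lie upstream of each start on the gene's strand, with the insulin response motif in capitals, for Irs1 at chr1:82291440-82291569 (minus strand) and for Irs2 at chr8:11008930-11009059 (minus strand).
Irs1: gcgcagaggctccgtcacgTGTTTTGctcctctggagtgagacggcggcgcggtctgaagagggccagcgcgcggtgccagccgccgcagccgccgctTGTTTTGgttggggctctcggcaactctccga
Irs2: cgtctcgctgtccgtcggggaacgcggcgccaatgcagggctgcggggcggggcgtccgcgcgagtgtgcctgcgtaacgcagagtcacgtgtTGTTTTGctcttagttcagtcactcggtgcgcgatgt
The matches began at positions -111 and -32 from the start in Irs1 and at -37 in Irs2. A match of letters is not evidence of binding.

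Wild-type mice of the 2 lines at 8 weeks were also compared with each other. No member was called (0% of all genes were), and Foxo1 alone had an unadjusted p under 0.05, against 3.12% of all genes. Foxo1 was at 4.72, 4.53 and 4.18 TPM in R206W control, above all 3 KO control mice, with a log2 difference of 0.30 (SE 0.141, unadjusted p = 0.0498, adjusted p = 0.784 in limma). Of all genes, 8.43% were higher in every R206W control than in every KO control and 0.646% were lower. The median difference over all genes in this comparison was 0.13. For Irs2 the difference was 0.53 (SE 0.413), and 0.07 without KO control 1.

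A further 90 genes of the pathway in 7 lists, of which 80 were tested, gave the setting of the members. In KO, 0 of 80 passed in limma and 2 had an unadjusted p under 0.05, a share below the 4.08% of all genes. These were Igf2, a growth factor of the IGF family, at 41.14, 46.12 and 62.69 TPM against 37.79, 26.61 and 37.94 TPM (log2 difference 0.53, SE 0.204, unadjusted p = 0.0192), and the FoxO target Gadd45a, a growth arrest gene, at 9 ± 2 TPM against 15.5 ± 4.04 TPM (SD, n = 3; log2 difference -0.71, SE 0.282, unadjusted p = 0.0232). Both had an adjusted p = 0.999 in limma. In R206W, 0 of 80 passed and 0 had an unadjusted p under 0.05. The smallest p-values were those of Akt2, a kinase of the PI3K branch (0.22, SE 0.147), and Inppl1, which encodes the lipid phosphatase SHIP2 (0.27, SE 0.181). In P209L, where the counts are a description, 0 of 80 were called in limma and 6 had an unadjusted p under 0.05, against 7.46% of all genes. Igf2 was at 20.25, 24.89 and 21.2 TPM there against 39.12 and 54.5 TPM (log2 difference -1.04, SE 0.228), and Rheb, the GTPase that activates mTOR, was at 121 ± 17 TPM (SD, n = 3) against 81.65 and 94.1 TPM (0.45, SE 0.141).

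Between the ages, 33 of the 80 pathway genes were called lower in 3-week wild-type cortex and 5 higher, with a median log2 difference of -0.34 against -0.12 over all genes. These are 41.2% lower and 6.25% higher, against 24.8% and 11.3% of all genes, and with median-of-ratios scaling 40% and 8.75%, against 22.6% and 21.5%. The counts of each list are to be read against the same shares of all genes. The PI3K and AKT list had 8 of 14 genes lower and 0 higher, among them Pdpk1, the kinase that activates AKT (-1.02, SE 0.129). Of the mTOR branch, 4 of 11 were lower and 0 higher, with Eif4ebp2, a repressor of translation initiation, at -0.78 (SE 0.149) and Rictor, a subunit of mTORC2, at -0.48 (SE 0.119).

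Of the FoxO regulators, 9 of 18 were lower and 1 higher. The acetyltransferase gene Ep300 was at -1.31 (SE 0.206) and the kinase gene Sgk1 at -1.03 (SE 0.208), whereas Sirt2, a deacetylase abundant in oligodendrocytes, was at 0.75 (SE 0.159). Of the FoxO target genes, 7 of 18 were lower and 1 higher, with Pdk4, an inhibitor of pyruvate oxidation, at -1.11 (SE 0.129), Sesn3, a sestrin, at -0.91 (SE 0.124), and the apoptosis gene Bbc3 at 0.69 (SE 0.226). Of the receptor adaptors and phosphatases, 4 of 12 were lower and 2 higher, with Shc3 at -1.72 (SE 0.135), Sos1 at -0.90 (SE 0.14), Grb14 at 0.91 (SE 0.178) and Shc2 at 0.48 (SE 0.162). Of the binding proteins, 1 of 5 was lower, Igfbp5 at -0.98 (SE 0.168), and 1 higher, Igfbp3 at 0.59 (SE 0.161). Of the other ligands and receptors, 0 of 2 were called.

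**Figure D5:**
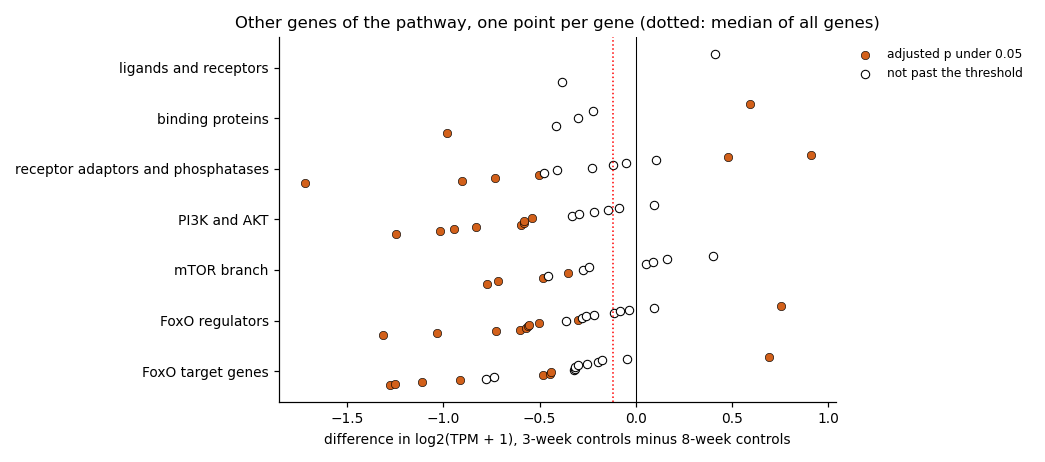
Difference in log2(TPM + 1) between 3-week and 8-week wild-type cortex for the 80 other pathway genes tested, by list, with filled points for genes at an adjusted p under 0.05 and a dotted line at the median of all genes. The filled points are 33 below 0 and 5 above 0, and the lowest is Shc3 at -1.72.

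Leaving out P209L control 1 left 24 pathway genes called between the ages, leaving out P209L control 2 left 15, and leaving out KO control 1 gave 56.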

How the data were processed

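Bulk cortex RNA (RNeasy, TruSeq Stranded Total RNA) from 17 mice was analysed. Values per gene symbol and mouse were deposited as TPM. The submitters' processing notes name Trim Galore, STAR 2.7.1a, GATK 4.0.4.0, RSEM and mm10, without roles. By definition TPM sums to 1000000 in each mouse, so depth is unknown and no counting error is given. The table held 55573 entries, and 120 repeats of a symbol were summed. Genes with a mean of at least 1 TPM (16265) were tested as log2(TPM + 1), which understates changes of low genes, with limma 3.58.1 in R 4.3.3 (6 group means, eBayes with trend, two-sided, Benjamini-Hochberg over all genes, threshold 0.05). A group counts as not overlapping when its lowest mouse is above, or its highest below, every mouse of the other. P-values measure the spread between mice. Gene positions are from GENCODE M21 (GRCm38).

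The members and lists were chosen with earlier results of these data known. The pathway genes named were, per list, up to 2 higher and 2 lower by smallest p between the ages, and the 2 with the smallest p per mutant comparison; 1 gene that this rule names is not reported here. The fit was tested on simulated data. Alternatives were pseudocounts of 0.1 and 0.5, no filter or a mean of 5 TPM, median-of-ratios and quantile scaling, removal of mitochondrial genes, robust estimation, sample weights (gene-by-gene method, since the default did not converge), fits on the compared groups alone, a replicate block, either control group alone at 8 weeks, and leaving out each mouse.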

Additional observations from a re-analysis of the deposited data

Results flagged for a closer look

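Among the 6 wild-type mice at 8 weeks, KO control 1 lay far below the others for Foxo3 (20.34 TPM), for Irs2 (11.95 TPM) and for the summed FoxO TPM (36.68 TPM). Its gap to the next mouse was 0.682, 0.694 and 0.705 of the whole range, above Dixon's critical value for 6 samples. Of 12 values looked at, 3 stood out in this way, all 3 in this mouse. Chance gives about 1 in 20 for independent values. These values are not independent, since Foxo3 is part of the FoxO sum and all 3 come from the same mouse. The count cannot be compared with that rate. This mouse also had the highest share of mitochondrially encoded genes, and the part of that in these values was not tested.

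Igfbp2 was higher in every KO mouse than in its controls (1.39 times their mean) and lower in every P209L mouse than in its controls (0.59 times). Igf2 did the same, at 1.47 times the control mean in KO and 0.472 times in P209L. The difference between these effects was not tested, the lines differ in age, and P209L control 2, which carried the choroid plexus markers, had the higher value of both genes among the P209L controls.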

How the results depend on the processing

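Depth is unknown, and 2 or 3 mice a group limit every test; a fit that leaves out a P209L control assumes that the remaining one varies like the other groups. With sample weights, 2 members (Foxo6 and Irs2) and 21 pathway genes were called in KO, 1 member (Foxo4) in R206W, 1 (Foxo6) in the difference of these effects, and 64 pathway genes between the ages. In P209L, 0 members were called with robust estimation, on the line alone or with the replicate block, and also 0 to 0 on leaving out any mouse. Between the ages, 3 members were called of the 6 left by the filter at 5 TPM, and 24 pathway genes against KO control alone; leaving out each mouse gave 2 to 8 members and 15 to 56 pathway genes, differences in the Igf1r to Insr ratio of -0.524 to -0.365, and FoxO sums differing by -25.1 to -19.4 TPM. Without either P209L control the ratio had an exact p = 0.143.

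Directions turned in KO for Foxo3 (median-of-ratios -0.030, quantile -0.0098, weights -0.25), Igf1r (-0.035, -0.027 and -0.18), Foxo1 (weights -0.062) and the FoxO sum (median-of-ratios -1.17 TPM; -7.52 to 6.76 TPM over left-out mice). Between the ages they turned for Foxo4 (0.0053 and 0.047 with these scalings) and Igfbp2 (0.13 and 0.15; weights 0.037; KO control alone 0.057). Leaving out mice also turned small differences: in KO, Foxo3 (-0.26 to 0.26), Igf1r (-0.23 to 0.23), Insr (-0.24 to 0.10), Irs1 (-0.28 to 0.11) and Igf1 (-0.23 to 0.035); in R206W, Irs2 (-0.38 to 0.23), Insr (-0.082 to 0.022), Igfbp2 (-0.073 to 0.053), Irs1 (-0.065 to 0.052) and Foxo3 (-0.13 to 0.040); and Igfbp2 between the ages (-0.36 to 0.34). The causes were not tested.

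Replicate numbers showed no clear pairing of the mice, with same-number correlations of -0.11 to 0.33 against -0.30 to 0.26 for different numbers. With 2 or 3 mice a group, these correlations cannot exclude pairing. The replicate block changed the count only in P209L, where Foxo4 (0.66) was no longer called.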

Other observations

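The genes whose log2(TPM + 1) followed a member most closely over the 17 mice differed between the members. For Foxo4 they were Ddn, which encodes dendrin, a postsynaptic protein (Pearson r = 0.931), Phactr3 (0.927) and Gm31166 (0.918); with group means removed these values were 0.338, 0.478 and 0.0364. For Irs2 they were Dusp4, a MAP kinase phosphatase (0.985), Ier5l (0.98) and Rtn4rl2 (0.98), and with group means removed 0.975, 0.94 and 0.969. For Foxo3 they were Arhgef17, Aplp2 and Abhd2, for Igf1r Zfp526, Zfp280b and Wdfy3, for Igfbp2 Phldb2, Car14 and Cd82, and for Igf1 Gm28374, Tvp23b and Rab39b. For Foxo1 they were Wwc2, Zfp575 and Ptpra, for Foxo6 Ccnd2, Dyrk3 and Shisa9, for Insr Tmem135, Prep and Fam120b, and for Irs1 Tmem109, Zdhhc5 and Nectin1. The mice share groups, ages and the composition of KO control 1, so these are descriptions.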
